A study of Homo sapiens with 8 samples.

Results

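The immediate-early transcription factors of the AP-1 family (FOS, FOSB, FOSL1, FOSL2, JUN, JUNB, JUND and ATF3), together with EGR1 and MYC, were examined in U87 cells after depletion of RND3. The 10 genes were chosen by name, with earlier results of these data known, and found on the array through the RefSeq accession of each probe. They were represented by 13 probes, of 42405 probes and 19483 named genes in all. ATF3 had 4 probes and every other member had 1. U87 is an established human glioblastoma line, and RND3, also called RhoE, encodes an atypical small GTPase that does not hydrolyse GTP. Cells were reverse-transfected with Lipofectamine RNAiMAX and either non-silencing siRNA (siControl, called NSC in the labels) or siRNA against RND3 (siRND3, called RhoE KD). Total RNA was hybridised to 8 one-colour Agilent arrays, with 3 arrays per treatment 24 h after transfection and a single array per treatment after 48 h. The methods name a pair of oligonucleotides against RND3, and which of them each array received is not given in the sources used here. Neither do the labels say whether replicates were separate transfections, so that p-values measure only the spread between these samples, which may be technical. All comparisons at 48 h lacked replicates.

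AP-1 is a family of dimers in which a JUN protein is joined to another JUN, to a FOS protein or to a member of the ATF group, and which bind short palindromic DNA elements. Many of its genes, like EGR1, which encodes a zinc finger factor, are transcribed within minutes of growth factor or stress signals that run through the MAP kinases, and their transcripts are short-lived. MYC, a basic helix-loop-helix factor that binds DNA with its partner MAX, drives genes of ribosome production and cell growth and is often raised in glioblastoma.

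Promoters of the 3 members that were lower at 24 h and had an entry in the promoter table are shown because they hold recognisable elements of this network. Each sequence is the 250 bases before the annotated start in RefSeq (GRCh38.p14), written 5′ to 3′ on the strand of the gene. For JUN (chr1:58784048-58784297, minus strand) and for the first of the 2 listed starts of ATF3 (chr1:212565157-212565406, plus strand), capitals mark TGACATCA, a variant of the cyclic AMP response element that JUN and ATF dimers can bind. For EGR1 (chr5:138465229-138465478, plus strand), capitals mark a match to GCGNGGGCG, the element read by EGR proteins, and then 2 CArG boxes, the element of serum response factor.
JUN: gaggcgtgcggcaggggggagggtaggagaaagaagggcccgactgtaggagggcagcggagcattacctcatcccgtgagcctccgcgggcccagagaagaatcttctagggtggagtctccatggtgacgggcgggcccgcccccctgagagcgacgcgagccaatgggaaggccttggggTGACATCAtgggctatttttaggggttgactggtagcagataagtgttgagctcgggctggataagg
ATF3: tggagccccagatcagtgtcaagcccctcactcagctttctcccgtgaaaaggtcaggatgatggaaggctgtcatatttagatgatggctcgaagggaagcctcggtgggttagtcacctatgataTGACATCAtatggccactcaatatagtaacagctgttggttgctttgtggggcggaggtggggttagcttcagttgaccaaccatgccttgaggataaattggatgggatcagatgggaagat
EGR1: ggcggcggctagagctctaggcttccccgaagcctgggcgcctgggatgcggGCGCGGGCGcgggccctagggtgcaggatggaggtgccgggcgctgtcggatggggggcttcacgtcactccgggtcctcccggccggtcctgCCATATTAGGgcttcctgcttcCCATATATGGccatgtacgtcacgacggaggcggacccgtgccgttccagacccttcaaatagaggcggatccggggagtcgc
The TGACATCA element began 67 bases before the start of JUN and 123 bases before that of ATF3. The CArG boxes of EGR1 began 105 and 83 bases before its start, and the EGR element 198 bases before it. Both strands were searched, in 9 promoter entries of 8 members, for these elements and for TGANTCA (the AP-1 heptamer), TGACGTCA (the cyclic AMP response element) and CACGTG (the E-box of MYC and MAX). No match belonged to more than 1 motif. The only further match was TGACGTCA, 200 bases before the start of JUND. Of 35116 promoters of the same length, TGACATCA was present in 2.37%, the CArG box in 1.16%, GCGNGGGCG in 8.41%, TGANTCA in 6.57%, TGACGTCA in 1.65% and CACGTG in 6.34%. These matches describe the sequence and are not evidence of binding. FOSL1 and MYC had no entry.

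The targeted gene was lower in every siRND3 library. RND3 (probe A_23_P142849) had log2 intensities of 11.88, 11.91 and 11.90 on the 3 siControl arrays at 24 h and of 10.12, 10.18 and 10.42 on the 3 siRND3 arrays, so the groups lay far apart. The difference was -1.66 (SE 0.10, limma adjusted p 0.000345), which left 31.7% of the siControl level, and at 48 h it was -1.65. Here and below the test at 24 h is limma, a linear model per probe with a spread moderated over all probes, and p is adjusted by Benjamini-Hochberg over the 28759 probes tested. All 8 arrays shared 1 slide and 1 scan, with siRND3 arrays in row 1 and siControl arrays in row 2, so that row and treatment cannot be told apart. Between 68.3% and 70.7% of probes per array were well above background as the scanner software judged it, as were all 13 member probes on all 8 arrays. Of the glioma markers, VIM, NES, CD44 and CHI3L1 were well above background on all 8 arrays, OLIG2 on 7 and S100B on 1, whereas GFAP and SOX2 were so on none. At least 1 probe was well above background on all 8 arrays for 3 of 3 endothelial markers (PECAM1, CDH5, VWF), 4 of 4 immune markers (PTPRC, CD3E, CD14, CD68) and 2 of 3 epithelial markers (EPCAM and KRT19, with CDH1 on none), so this call did not separate the line from other cell types.

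At 24 h, 4 of the 10 members were down-regulated in siRND3 cells: ATF3, JUN, EGR1 and MYC. None was up-regulated at an adjusted p of 0.05, and FOS, FOSB, FOSL1, FOSL2, JUNB and JUND did not pass. Of 14805 genes tested over the whole array, 9.26% were down-regulated and 7.16% up-regulated, and the probes called in either direction made up 11.6%. Because the members were chosen with earlier results known, an excess of called members is no independent support. The median difference over the members was -0.07, against 0.04 over all genes. On the member probes, siRND3 and siControl arrays did not overlap for 8 of 13, with siRND3 lower for 6 and higher for 2. Several of the 6 lower probes belong to ATF3, so that gene counts more than once. Over all probes the groups did not overlap for 34.4%, with siRND3 lower for 14% and higher for 20.3%. In bulk RNA, fewer expressing cells and less RNA per cell cannot be told apart. Values below are log2 intensities of 1 probe across arrays, and differences are siRND3 minus siControl on that scale. Levels of different genes are not comparable on this array.

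**Figure D1:**
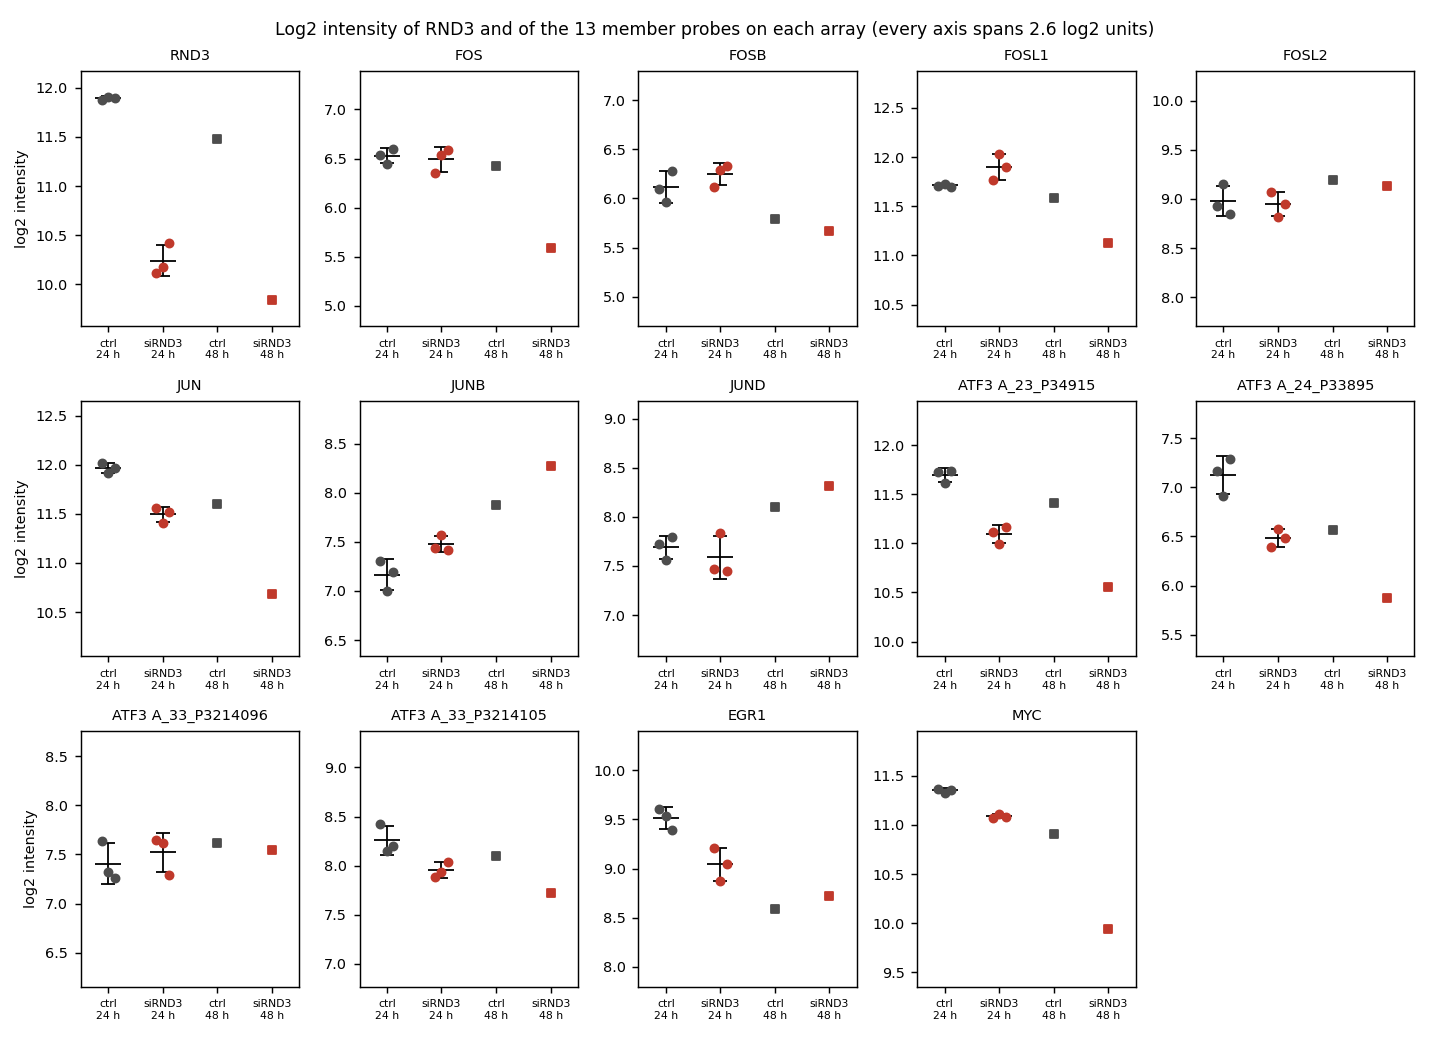
Log2 intensity (vertical axes, each spanning 2.6 log2 units) of RND3 and of the 13 member probes on each of the 8 arrays, by treatment and time, where ctrl is siControl. Circles are arrays at 24 h with the mean and SD of 3 in black, and squares are single arrays at 48 h. The siRND3 arrays lie below the siControl arrays at both times for RND3, JUN, MYC and 3 of the 4 ATF3 probes.

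Among the JUN genes, whose products can pair with each other as well as with FOS proteins, JUN fell and JUNB did not follow it. JUN (A_33_P3323298) was 12.02, 11.92 and 11.97 on the siControl arrays at 24 h and 11.56, 11.41 and 11.52 on the siRND3 arrays. The lowest siControl array thus stood above the highest siRND3 array. The difference was -0.47 (SE 0.08, 95% interval -0.66 to -0.29, adjusted p 0.0124), or 72.0% of the siControl level. The call was lost when siControl replicate 1 (adjusted p 0.0581) or replicate 3 (0.0606) was left out, within a range of 0.00219 to 0.0606 over all alternatives. At 48 h JUN stood at 11.60 with siControl and at 10.68 with siRND3, 52.9% of the siControl level.

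JUNB, which encodes a JUN protein that often opposes JUN at shared targets, lay on the other side. It was 7.31, 7.00 and 7.19 in siControl cells and 7.44, 7.57 and 7.42 in siRND3 cells at 24 h, with no overlap and every siRND3 array higher. The difference of 0.31 (SE 0.10, 95% interval 0.07 to 0.55) had an adjusted p of 0.105, with a range of 0.0434 to 0.248 over the alternatives. JUNB passed only when all 8 arrays entered 1 fit with terms for treatment and time (0.0434). Here and below, that fit gives 1 treatment effect taken over both times and not the difference at 24 h alone. At 48 h JUNB was 7.88 and 8.27, again higher on the siRND3 array, by 0.39. JUND, the JUN gene that is least dependent on stimulation, was 7.72, 7.56 and 7.79 against 7.47, 7.84 and 7.45. These groups overlapped, with a difference of -0.10 (95% interval -0.41 to 0.20, adjusted p 0.654).

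ATF3, a stress-induced partner of JUN, gave the lowest adjusted p of the members, yet its 4 probes did not move together. Probe A_23_P34915 was 11.73, 11.61 and 11.74 in siControl cells at 24 h and 11.12, 10.99 and 11.17 in siRND3 cells. The difference was -0.60 (SE 0.08, 95% interval -0.80 to -0.40, adjusted p 0.00723), and this call held in all 14 alternatives in which the probe was fitted by limma. On A_24_P33895 the values were 7.17, 6.91 and 7.29 against 6.39, 6.58 and 6.48, a difference of -0.64 (SE 0.12, adjusted p 0.0195). Neither pair of groups overlapped, and the levels fell to 65.9% and 64.2% of siControl. This second call was lost without siControl replicate 1 (adjusted p 0.0726) or 3 (0.0676) and without siRND3 replicate 1 (0.0541) or 3 (0.0554). The replicate number as a block also ended it (0.0637), within a range of 0.00547 to 0.0726.

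The other ATF3 probes carried 1 spot each per array. A_33_P3214105, designed on the transcript NM_001674, was 8.42, 8.15 and 8.20 against 7.88, 7.94 and 8.04, without overlap. Its difference of -0.30 (95% interval -0.54 to -0.07) had an adjusted p of 0.102 and passed with normexp background correction (0.0344), the deposited log2 values (0.0488) and the fit of all 8 arrays (0.0426), in a range of 0.0344 to 0.245. A_33_P3214096 shares the accession NM_001040619 with the first 2 probes, and it was 7.64, 7.32 and 7.26 against 7.65, 7.62 and 7.29, with overlapping groups. Its difference was 0.11 (95% interval -0.23 to 0.46, adjusted p 0.656). The mean of the 4 probes differed by -0.36 (SE 0.08, adjusted p 0.045). At 48 h all 4 were lower on the siRND3 array, by 0.85, 0.70, 0.38 and 0.09 in absolute size for A_23_P34915, A_24_P33895, A_33_P3214105 and A_33_P3214096 respectively. The difference on A_24_P33895 was -0.38 with normexp.

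None of the FOS genes, whose products need a partner such as JUN to bind DNA, passed the test at 24 h. FOS (A_23_P106194) was 6.54, 6.45 and 6.60 in siControl cells and 6.35, 6.54 and 6.59 in siRND3 cells. The groups overlapped, and the 95% interval of the difference ran from -0.26 to 0.18 around -0.04 (adjusted p 0.833). At 48 h FOS stood at 6.42 with siControl and at 5.59 with siRND3, the lowest of all 8 arrays and 56.4% of the siControl level. This difference of -0.83 was -0.38 with normexp and -0.51 with the deposited log2 values. FOSB overlapped as well, at 6.10, 5.96 and 6.28 against 6.12, 6.29 and 6.33 (difference 0.14, 95% interval -0.12 to 0.39, adjusted p 0.469). FOSL2, which encodes Fra-2, also overlapped, at 8.93, 9.15 and 8.85 against 9.07, 8.82 and 8.95 (difference -0.03, 95% interval -0.29 to 0.24, adjusted p 0.909).

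FOSL1, which encodes Fra-1, a FOS protein common in invasive tumour cells, was on opposite sides at the 2 times. It was 11.71, 11.73 and 11.70 in siControl cells and 11.77, 12.03 and 11.90 in siRND3 cells at 24 h, without overlap and higher in siRND3 cells. The difference of 0.18 (95% interval -0.03 to 0.39) did not pass (adjusted p 0.230). By 48 h the order had turned, with 11.58 for siControl and 11.13 for siRND3 (difference -0.45).

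EGR1 (A_23_P214080) was lower in siRND3 cells at 24 h and not on the single array at 48 h, a change that did not pass. Its values at 24 h were 9.61, 9.54 and 9.39 in siControl cells and 9.21, 8.87 and 9.05 in siRND3 cells, with no overlap. The difference was -0.48 (SE 0.11, 95% interval -0.75 to -0.21, adjusted p 0.0433), or 71.9% of siControl. That call was lost when any siControl array was left out (adjusted p 0.133, 0.123 and 0.0800 without replicates 1, 2 and 3) and without siRND3 replicate 2 (0.0971) or 3 (0.0934). With every array kept it was also lost with no filter on dim probes (0.0867) and with the replicate number as a block (0.0739). In 1 fit of all 8 arrays with terms for treatment and time, the effect over both times was -0.32 and did not pass (adjusted p 0.147). Over all alternatives, that fit included, the adjusted p of EGR1 ran from 0.0132 to 0.147. At 48 h EGR1 stood at 8.59 with siControl and at 8.72 with siRND3, both below every array at 24 h.

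MYC (A_23_P215956, 10 spots per array) showed the smallest decrease of the 4 called members and the smallest spread. It was 11.37, 11.32 and 11.36 in siControl cells and 11.07, 11.11 and 11.08 in siRND3 cells at 24 h, which is 11.35 ± 0.03 against 11.09 ± 0.02 (SD, n = 3). The arrays of the 2 treatments did not overlap. The difference was -0.27 (SE 0.07, 95% interval -0.42 to -0.11), at the edge of the threshold with an adjusted p of 0.0499. Leaving out any 1 array ended the call, with adjusted p of 0.156, 0.124 and 0.175 without siControl replicates 1, 2 and 3 and of 0.0948, 0.0807 and 0.0958 without siRND3 replicates 1, 2 and 3. With every array kept, the MYC call was also lost under 75th percentile scaling (0.0732), normalisation over the 24 h arrays only (0.0511) and SAM, the test of the methods. In 1 fit of all 8 arrays the effect over both times was -0.44 and did not pass (adjusted p 0.0516). The replicate number as a block also ended the call (adjusted p 0.135). The range over all alternatives was 0.0150 to 0.175. By 48 h MYC stood at 10.91 with siControl and at 9.94 with siRND3, 50.9% of the siControl level.

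**Figure D2:**
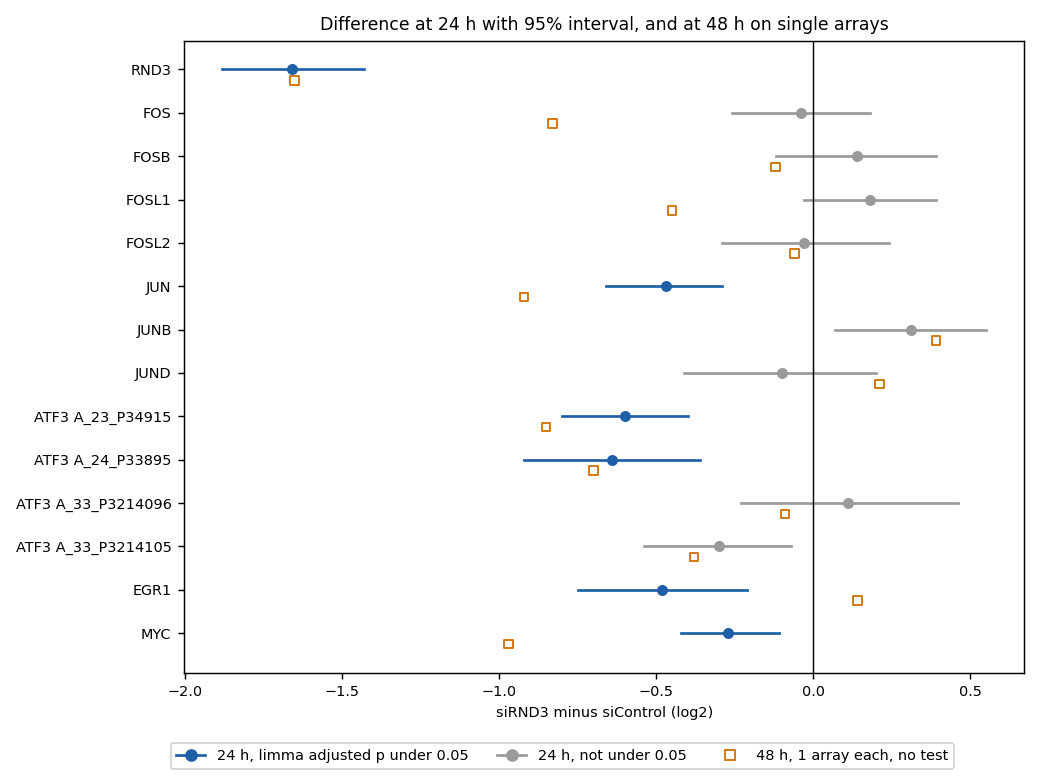
Difference between siRND3 and siControl (horizontal axis, log2) for RND3 and each member probe, with circles and 95% intervals at 24 h (3 arrays per group) and open squares for the single arrays at 48 h. At 24 h the intervals of RND3, JUN, EGR1, MYC and 3 ATF3 probes lie below 0 and that of JUNB above it, and at 48 h FOS, JUN, ATF3 probe A_23_P34915 and MYC lie between -0.83 and -0.97.

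**Figure D3:**
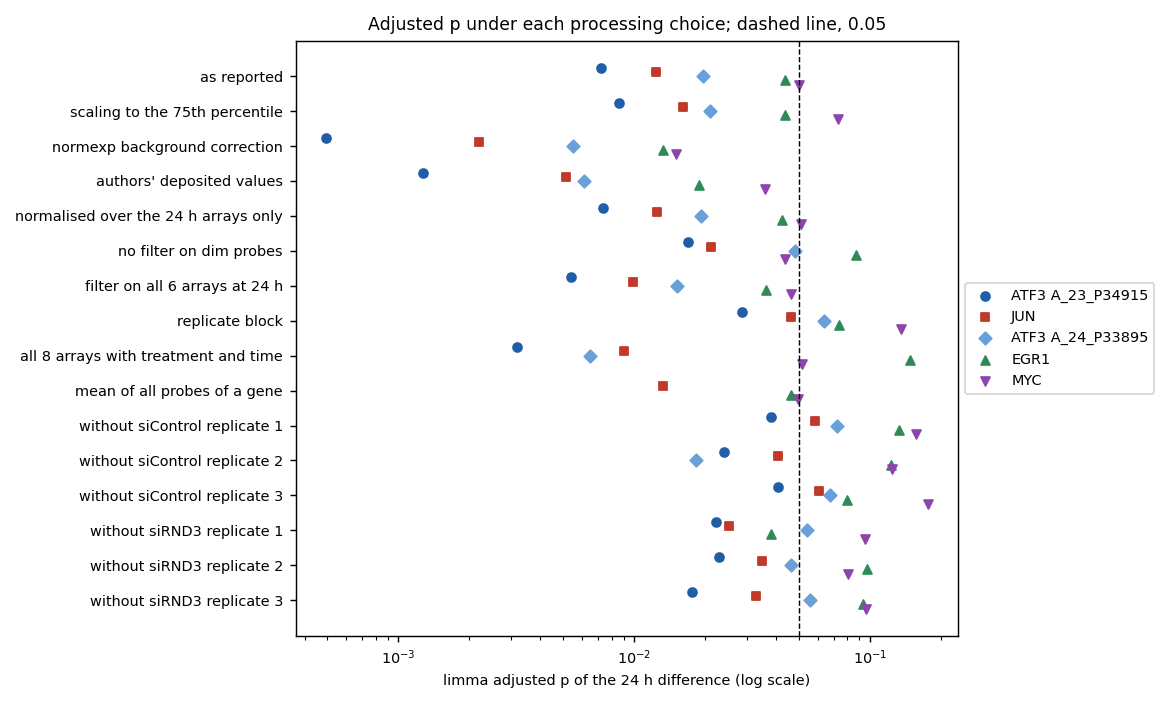
Adjusted p of the difference at 24 h from limma (horizontal axis, log scale) for the 5 called member probes under each processing alternative, with the dashed line at 0.05 (single ATF3 probes have no value under the mean of all probes). ATF3 probe A_23_P34915 stays left of the line. ATF3 probe A_24_P33895 crosses it with the replicate block and without replicate 1 or 3 of either treatment. JUN crosses it without siControl replicate 1 or 3, and EGR1 and MYC cross it in most rows that leave out an array.

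At 48 h, 10 of the 13 member probes were lower on the siRND3 array than on the siControl array, against 44.8% of all probes tested. These 10 include every ATF3 probe, so that gene counts more than once. No member differed by more than 1 on the log2 scale, which 9.54% of all probes did. The exceptions to the lower direction were EGR1, JUNB and JUND. The median difference over the members was -0.29, against 0.06 over all genes. To ask whether the effect of the knockdown changed between the times, the 24 h effect was subtracted from the 48 h effect in a limma model of all 8 arrays. That model takes each lone 48 h array to vary as the replicated 24 h arrays do. By this test 2.73% of all probes passed and 2.56% of genes were lower, and of the members MYC alone passed, at -0.71 (SE 0.13, adjusted p 0.0489). This call too was lost without any 1 of the 6 arrays at 24 h (adjusted p 0.0727 to 0.141), under 75th percentile scaling (0.0512) and with the probes of each gene averaged (0.0519), and its range over the alternatives was 0.0160 to 0.141. FOS (-0.79, SE 0.18, adjusted p 0.0818), FOSL1 (-0.63, SE 0.17, 0.119), JUN (-0.44, SE 0.15, 0.190) and EGR1 (0.61, SE 0.23, 0.215) did not pass. FOSL1 passed with normexp (-0.67, adjusted p 0.0411, in a range of 0.0411 to 0.244), and FOS was -0.38 with normexp and -0.50 with the deposited log2 values, past the threshold in no alternative (0.0582 to 0.165).

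The changes from 24 h to 48 h within each treatment gave the values behind these differences. Each treatment had a single array at 48 h, and no alternative left out that array. The alternatives therefore cannot show how far these changes rest on it. In siRND3 cells 5 members fell with time and 1 rose, against 9.19% and 3.61% of all genes (9.03% of probes in either direction). MYC fell by 1.15 (SE 0.09), with changes of -1.16 to -1.07 over the alternatives run. FOS fell by 0.91 (SE 0.13, adjusted p 0.0113), JUN by 0.82 (SE 0.11, 0.00895), FOSL1 by 0.77 (SE 0.12, 0.0151) and ATF3 probe A_23_P34915 by 0.53 (adjusted p 0.0408). The FOS value was -0.45 with normexp, in a range of -0.98 to -0.45 over the alternatives. The ATF3 call was lost in 6 of 11 alternatives, including without siControl replicates 1, 2 and 3 (0.0837, 0.0706 and 0.0856) and without siRND3 replicates 1 and 3 (0.0690 and 0.0766), in a range of 0.0130 to 0.0856. JUNB rose by 0.79 (SE 0.14, adjusted p 0.0227), a call lost without siControl replicate 3 (0.0534) or siRND3 replicate 3 (0.0533), in a range of 0.00764 to 0.0534. JUND, at 0.72 (adjusted p 0.0590), passed with normexp (0.0278), the deposited log2 values (0.0354), a filter on all 6 arrays at 24 h (0.0484) and without siRND3 replicate 2 (0.0273), in a range of 0.0273 to 0.108.

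In siControl cells 1 member was called at the reported settings, EGR1, which fell by 0.93 from 24 h to 48 h (SE 0.16, adjusted p 0.0345). Over all genes 3.99% fell and 1.19% rose, and 3.56% of probes were called in either direction. The EGR1 call was lost without siControl replicates 1, 2 and 3 (0.0950, 0.0926 and 0.0785) and without siRND3 replicate 3 (0.0581), and with no filter on dim probes (0.0594), in a range of 0.00978 to 0.0950. In siRND3 cells EGR1 changed by -0.32 over the same time (adjusted p 0.267). The siControl changes of JUNB (0.71, SE 0.14, adjusted p 0.0532) and MYC (-0.44, SE 0.09, 0.0598) fell short of the threshold, and that of FOS was -0.12 (adjusted p 0.643). JUNB passed with normexp (0.0313), the deposited log2 values (0.0379) and a filter on all 6 arrays at 24 h (0.0425), in a range of 0.0313 to 0.135. MYC passed with normexp (0.0176), the deposited log2 values (0.0386) and no filter on dim probes (0.0446), in a range of 0.0176 to 0.174. MYC, JUN, FOS, FOSL1, FOSB and RND3 thus had their lowest value of the 8 arrays on the siRND3 array at 48 h. So did ATF3 probes A_23_P34915, A_24_P33895 and A_33_P3214105, and EGR1 had its lowest on the siControl array at 48 h.

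**Figure D4:**
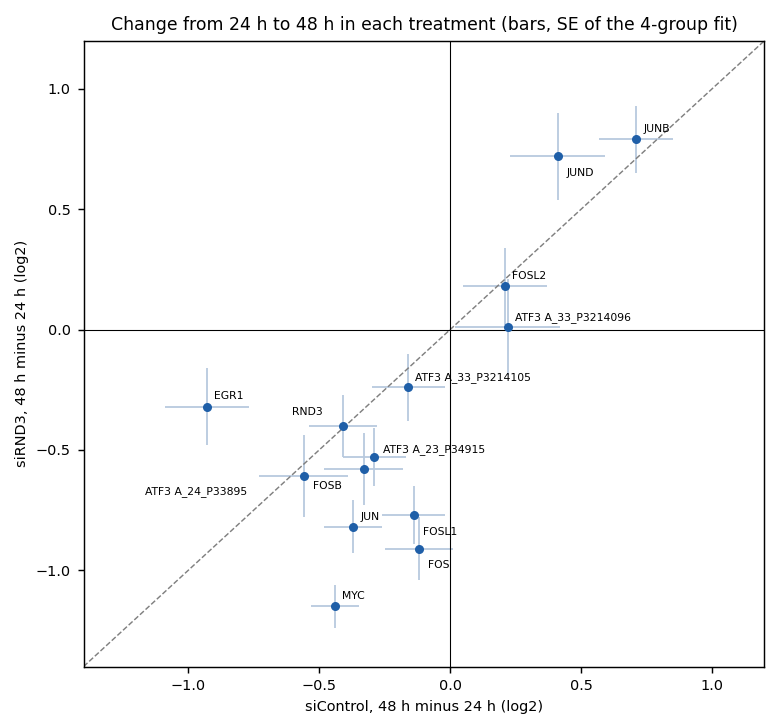
Change from 24 h to 48 h in siControl cells (horizontal axis, log2) against that in siRND3 cells (vertical axis, log2) for RND3 and the 13 member probes, with SE bars from the model of all 8 arrays and a dashed line of equal change. MYC, FOS, FOSL1 and JUN lie below the line, EGR1 lies above it, and JUNB and JUND lie in the upper right.

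The genes that work with the members were read from 9 lists, chosen with earlier results of these data known. An excess of called genes in a list is therefore no independent support. A gene was called if 1 or more of its probes passed and all that passed had the same sign. Over all 14805 genes 9.26% were down-regulated and 7.16% up-regulated, with a median difference of 0.04 at 24 h and 0.06 at 48 h, and the counts below stand beside these shares. Of the proteins that pair with AP-1 factors, 8 of the 10 genes reported could be tested, 1 was up-regulated and 4 were down-regulated. JDP2, which dimerises with JUN, rose from 9.32, 9.50 and 9.52 to 10.21, 10.13 and 10.27 (difference 0.76, SE 0.09, adjusted p 0.00373). Its groups did not overlap, and at 48 h it stood at 8.87 with siControl and at 10.33 with siRND3. The small MAF genes MAFF and MAFK, whose proteins lack an activation domain, fell by 0.70 (SE 0.08, adjusted p 0.00296) and 0.58 (SE 0.10, adjusted p 0.0183), and the MAFK call was lost without siControl replicate 1 (0.0550) or 3 (0.0654) or siRND3 replicate 3 (0.0507), in a range of 0.00384 to 0.0654. BATF2, a partner of JUN known from interferon responses, was 7.24, 7.11 and 7.32 against 6.83, 6.60 and 6.53 (difference -0.57, SE 0.11, adjusted p 0.0202). The call was lost without siControl replicate 1 (0.0734) or 3 (0.0825) and without siRND3 replicate 2 (0.0661) or 3 (0.0547), in a range of 0.00851 to 0.0825. The list's median was -0.23.

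Within the EGR family and its NAB corepressors only 3 of 6 genes could be tested, 1 up-regulated and 1 down-regulated. EGR2 was 8.71, 8.67 and 8.61 in siControl cells and 9.27, 9.16 and 9.16 in siRND3 cells, higher by 0.53 (SE 0.07, adjusted p 0.00712), on the opposite side of siControl from EGR1. NAB1, which binds EGR1 and restrains it, fell on both probes, by 0.34 (adjusted p 0.0367) and 0.45 (adjusted p 0.0388). Both NAB1 calls were lost without any siControl array, without siRND3 replicate 1 (0.0786 and 0.0884) or 2 (0.0887 and 0.105) and with no filter on dim probes (0.0506 and 0.0751), and that of A_23_P209805 also without siRND3 replicate 3 (0.0566). The adjusted p reached 0.127 on A_23_P209805 and 0.135 on A_24_P191417. EGR3, EGR4 and WT1 were not tested.

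In the network of MYC partners and rivals, 10 of 11 genes were tested, 2 were down-regulated and none up-regulated. MXD1, which competes with MYC for MAX, fell on both probes. On A_24_P379750 it was 8.07, 8.06 and 8.03 in siControl cells and 6.68, 6.67 and 6.76 in siRND3 cells, 39.2% of the siControl level (difference -1.35, SE 0.07, adjusted p 0.000219), and on A_23_P408094 it fell by 1.18, or by 0.60 with normexp. MLXIP, a glucose-sensing relative of MYC, fell by 0.66 on A_23_P9823 (adjusted p 0.00471), while its other probe differed by 0.09 (adjusted p 0.604). None of the probes of MAX passed. The list's median difference was -0.05.

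Other immediate-early genes moved both ways, with 2 of 17 tested genes up-regulated and 4 down-regulated and a median of -0.03. CCN2, a matricellular protein gene, was 8.35, 8.16 and 8.20 against 7.27, 7.62 and 7.47 (difference -0.78, SE 0.11, adjusted p 0.00775). IER3, a survival gene, fell by 0.64 and 0.61 on its probes (adjusted p 0.00346 and 0.00426, with 0.94 for the latter, A_33_P3423551, in the fit of all 8 arrays), and PHLDA1 fell by 0.63 (adjusted p 0.00611). The antiproliferative gene BTG2 rose from 8.20, 8.21 and 8.25 to 8.77, 8.85 and 8.90 (difference 0.62, SE 0.07, adjusted p 0.00383).

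The kinases and ternary complex factors that lie upstream of these genes held 1 called gene of 15 tested, up-regulated, and had a median difference of 0. This gene was MAP2K7, a kinase of the JNK route, higher by 0.46 (adjusted p 0.0293), a call lost without siControl replicates 1, 2 and 3 (0.101, 0.0692 and 0.0942) or siRND3 replicates 2 and 3 (0.0677 and 0.0673) and with no filter on dim probes (0.0559), in a range of 0.00682 to 0.101. Of the feedback inhibitors of the MAP kinases, which ERK activity itself induces in many cells, 5 of 12 (41.7%, against 9.26% of all genes) were down-regulated and none up-regulated, with a median of -0.32. DUSP1, a phosphatase of MAP kinases, was 10.59, 10.55 and 10.62 against 9.91, 9.75 and 9.77 (difference -0.78, SE 0.08, adjusted p 0.00209). SPRY2 fell by 0.60 (SE 0.08, adjusted p 0.00792), SPRY4 by 0.51 on A_24_P269062 (adjusted p 0.0369) and SPRED2 by 0.80 (SE 0.20, adjusted p 0.0490). The SPRY4 and SPRED2 calls were lost without any siControl array and without siRND3 replicate 1 or 3, with adjusted p of up to 0.126 and 0.131, and SPRED2 also without siRND3 replicate 2 (0.0849). With no filter on dim probes both were lost as well (0.0766 and 0.113), as was SPRED2 with the probes of each gene averaged (0.0532). The other SPRY4 probe differed by -0.25 (adjusted p 0.216).

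Textbook targets of AP-1 were down-regulated in 6 of 14 tested genes (42.9%, against 9.26% of all genes), with none up-regulated. Their median was -0.22 at 24 h and -1.09 at 48 h, against 0.04 and 0.06 over all genes. PLAU, the gene of urokinase, was 16.42, 16.27 and 16.46 in siControl cells and 14.37, 14.54 and 14.45 in siRND3 cells on A_23_P24104, 26.3% of the siControl level (difference -1.93, SE 0.09, adjusted p 0.000166). At 48 h PLAU stood at 16.67 with siControl and at 12.21 with siRND3. HBEGF, a ligand of the EGF receptor, fell by 1.27 (SE 0.08, adjusted p 0.000494), and the cytokine gene IL6 fell by 0.79 (SE 0.08, adjusted p 0.00185). The chemokine gene CXCL8 was 7.44, 7.55 and 7.52 against 6.47, 5.61 and 6.50 (difference -1.31, SE 0.24, adjusted p 0.0187), and its call was lost without siControl replicates 1, 2 and 3 (0.0591, 0.0628 and 0.0644) and with no filter on dim probes (0.0566), in a range of 0.00145 to 0.0644. The CXCL8 difference was -0.81 with normexp. In the 1 fit of all 8 arrays, which averages over both times, IL6 was -1.24. The collagenase and stromelysin genes MMP1 (0.20, adjusted p 0.141) and MMP3 (-0.02, adjusted p 0.924), which are equally classic AP-1 targets, did not pass.

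Of 24 tested genes that MYC activates, 2 were up-regulated (8.33%, against 7.16% of all genes), 1 was down-regulated (4.17%, against 9.26%) and 21 did not pass, with a median of 0.06, so these shares were near those over all genes. The nucleolar gene NOLC1 rose from 10.77, 10.74 and 10.61 to 11.86, 11.75 and 11.98 (difference 1.16, SE 0.09, adjusted p 0.000856), and POLR1B, a subunit of RNA polymerase I, was higher by 0.32 (adjusted p 0.0294). NOP2, a nucleolar methyltransferase gene, fell by 0.73 (SE 0.11, adjusted p 0.00863). The POLR1B call was lost without each of the 6 arrays (adjusted p of up to 0.109). Of 5 tested genes that MYC represses, 2 were down-regulated, NDRG1 by 0.72 (SE 0.10, adjusted p 0.00705) and GADD45B by 0.55 (SE 0.08, adjusted p 0.00935), and the median was -0.55.

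**Figure D5:**
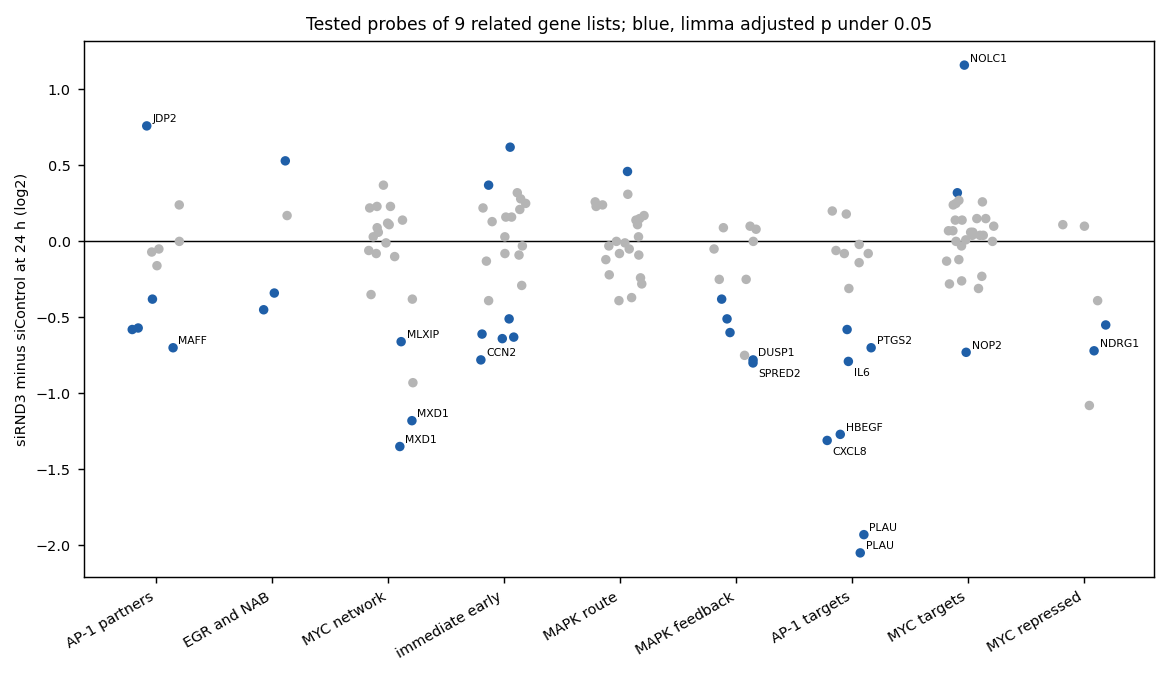
Difference between siRND3 and siControl at 24 h (vertical axis, log2) of every tested probe in 9 lists of related genes (horizontal axis), with blue for a limma adjusted p under 0.05. Blue probes lie below 0 throughout the AP-1 targets, MAPK feedback and MYC repressed lists and on both sides of 0 in the AP-1 partners, EGR and NAB, immediate early and MYC targets lists, and PLAU is the lowest, at -1.93 and -2.05.

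The genes whose pattern over the 8 arrays was most like that of a member were found by Pearson correlation among 4514 probes. These probes had a gene symbol, a value and a call well above background on all 8 arrays, and an SD of at least 0.3 over them. Over 8 arrays that share 1 slide, with 4 groups behind them, such correlations are descriptive. Nearest to MYC were ODC1 (r = 0.998), NEURL1B (0.997) and REEP5 (0.997), and ODC1, the gene of ornithine decarboxylase, was itself in the list of MYC-activated genes. ODC1 was 14.04, 13.94 and 13.98 in siControl cells at 24 h and 13.73, 13.71 and 13.75 in siRND3 cells, a difference of -0.26 (SE 0.07, adjusted p 0.0601), and it was 13.56 and 12.67 at 48 h. Nearest to JUN were USP46 (r = 0.996), MCTP1 (0.995) and AMIGO2 (0.995). PLK4 (0.979), DIS3 (0.978) and THBD (0.976) lay nearest to FOS, and MAGI2 (0.987), DUS1L (0.969) and GOLGA3 (0.941) nearest to EGR1.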

How the data were processed

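RNA of U87 cells was hybridised to 8 one-colour (Cy3) Agilent arrays. The authors ran Feature Extraction 10.7.3.1, and the deposited scanner files hold intensity on a linear scale, corrected for background within each array per the file headers. Normalised log2 values were deposited too, which the methods describe as quantile-normalised and whose order within each array equalled that of the spot median signal (Spearman 1).

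Here the processed signals were put on the log2 scale, and all 8 arrays were quantile-normalised together without control spots (4259 of 62976). Spots flagged as outliers (0.364% to 0.530% per array) were then left out, and spots of a probe were averaged, giving 42405 probes. No spot was saturated. A probe counted as well above background on an array when at least 50% of its spots did. Testing was limited to the 28759 probes that passed this call on all 3 arrays of either 24 h group, as all 13 member probes did. Probes were named by accession through RefSeq (GRCh38.p14), which named 25422 of them (60%). The number of arrays limits the precision.

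Groups came from the labels. The arrays at 24 h were compared with limma 3.58.1 in R 4.3.3, two-sided and without covariates. P-values were adjusted by Benjamini-Hochberg over all probes, with a threshold of 0.05. A 4-group limma model of all 8 arrays gave the comparisons across time. At the level of 1 probe an exact permutation test of 3 arrays against 3 cannot give a p below 0.1. The methods' test, significance analysis of microarrays (SAM), was an alternative, as were other scalings, background corrections, filters, the replicate number as a block and each 24 h array left out (16 in all). The limma and SAM steps were run on simulated data with known differences.

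From each list up to 4 genes were named, those with the largest absolute difference at 24 h among called probes, besides RND3, all members and the 3 genes most like FOS, JUN, EGR1 and MYC. MMP1, MMP3 and MAX, none of them called, were picked after their values were seen. In the lists, 1 gene is not reported here, and the lists were counted without it. The members and lists were chosen with earlier results of these data known.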

Additional observations from a re-analysis of the deposited data

Results flagged for a closer look

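Only RND3, the members and the list genes named for their difference at 24 h were screened here. Listed are those whose knockdown effect at 48 h differed from that at 24 h in the limma model of all 8 arrays. In that model each treatment had 1 array at 48 h. Values are the 48 h effect minus the 24 h effect on the log2 scale. MYC differed by -0.71 (adjusted p 0.0489). The AP-1 targets in this screen went further down at 48 h. They were PLAU at -2.54 (adjusted p 0.00887) and -2.66 (0.0245) on its probes, CXCL8 at -2.53 (0.0499), IL6 at -1.78 (0.0141) and HBEGF at -1.04 (0.0361). Several other AP-1 targets on the list did not pass this test, MMP1 and MMP3 among them. The immediate-early gene IER3 differed by -1.30 and -1.34 (both 0.0196), and NDRG1 by -1.22 (0.0370). Of the AP-1 partners, MAFF differed by -0.90 (0.0386). Every one of these calls was lost without siControl replicate 1, at adjusted p of 0.122 for MYC, 0.0559 and 0.0680 for PLAU, 0.111 for CXCL8, 0.0671 for IL6, 0.0911 for HBEGF, 0.0701 and 0.0700 for IER3, 0.0787 for NDRG1 and 0.0985 for MAFF. All but that of PLAU probe A_23_P24104 were also lost without siControl replicate 2 or 3 (adjusted p 0.0573 to 0.141), those of MYC, HBEGF, MAFF and NDRG1 also without any 1 siRND3 array at 24 h, and that of CXCL8 also without siRND3 replicate 1 or 3 (0.0538 to 0.0794 over these 5 genes). The MYC call was also lost under 75th percentile scaling (0.0512) and with the probes of each gene averaged (0.0519), and the CXCL8 call with no filter on dim probes (0.0906) and with averaged probes (0.0562). Over all alternatives the adjusted p of the genes named here ran from 0.000160 to 0.141. The CXCL8 value was -1.19 with normexp and -1.64 with the deposited log2 values, in a range of -2.82 to -1.19. Outside this screen the list genes CD44 (-1.54), KLF2 (-1.01) and DUSP6 (-0.91) also passed the test. Their calls were not followed over the alternatives.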

How the results depend on the processing

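Of the 4 called members, MYC was lost under 75th percentile scaling, SAM and normalisation over the 24 h arrays only, and EGR1 with no filter on dim probes. With all 8 arrays in 1 fit, whose effect is taken over both times, both were lost and JUNB was called. The 4 remained under the other unblocked settings that kept every array. Deviations from the group mean correlated at 0, -0.01 and 0.13 between same-numbered arrays of the treatments, and at -0.13 to 0.11 between others. With 3 arrays per group these values cannot show whether the numbers pair the arrays. With the replicate block 2 members (ATF3 and JUN) and 1651 probes were called, against 4 and 3350. With that block the limma calls of BATF2 (adjusted p 0.0565), MAFK (0.0523), MAP2K7 (0.0511), SPRY4 (0.098), SPRED2 (0.119) and POLR1B (0.0941) were lost. So were both NAB1 calls (0.108 and 0.0584). Leaving out 1 array gave 1 to 3 members (1 without siControl replicate 1 or 3) and 1379 to 2574 probes, and for the 48 h minus 24 h effect 7 to 273 probes against 785, for siControl time 73 to 905 against 1023 and for siRND3 time 1446 to 2394 against 2598. With normexp 1300 probes were called for the 48 h minus 24 h effect and 1565 for siControl time. Probes past 1 at 48 h numbered 2745, but 1088 with normexp and 1462 with the authors' values. The genes called over the 9 lists numbered 32, but 21 with the replicate block and 21 to 28 with 1 array left out (21 without siControl replicate 1 or 3), and 27 to 47 under the others.

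The changes of sign were all in uncalled values near 0. The FOS difference at 24 h became 0.00 under 75th percentile scaling and normexp, and lay between -0.09 and 0.03 (without siRND3 replicate 1) with 1 array left out, and its siControl time change 0.02 under 75th percentile scaling. FOSL2 at 24 h became 0.06 without siControl replicate 2 and 0.04 without siRND3 replicate 2 (range -0.09 to 0.06), and its 48 h minus 24 h effect 0.01 with normexp, 0.02 with the authors' values and 0.03 without siControl replicate 3 or siRND3 replicate 1 (range -0.12 to 0.03). That effect became 0.05, 0.01 and 0.05 for ATF3 probe A_24_P33895 with normexp, the authors' values and without siControl replicate 2 (range -0.14 to 0.05 with 1 array left out), and -0.05 and -0.02 for RND3 without siRND3 replicates 1 and 2 (range -0.05 to 0.09). The siRND3 time change of A_33_P3214096 became -0.10 without siRND3 replicate 3. The cause was not tested. Scalings moved the median 24 h difference of all probes between 0.03 and 0.08. Normexp used the spot median signal.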
